A study of Glycine max with 6 samples.

Results

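In drought-stressed V6 soybean leaves, 99 probes of the 66195 on the array fell together with a neighbour on the same chromosome. They were chosen by their values: the mean of the drought-stressed plants was from 2 to just under 4 log2 units below the mean of the well-watered plants (a fall of 4-fold to under 16-fold), the 3 drought values were all below the 3 well-watered values, and at least 1 other such probe had a gene ID number 10 to 30 away. The first 2 criteria took 856 probes (1.29% of all probes), and 853 of these lay on a numbered chromosome. These falls are therefore a description of the members, and no test was made of them. Joining members whose ID numbers were at most 30 apart gave 46 runs, of which 40 held 2 members, 5 held 3 and 1 held 4.

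The leaves were the fourth trifoliates of Williams 82 plants grown in a greenhouse. The drought-stressed plants (plants 1, 2 and 4) had been left without water for 6 days, until soil moisture was at 5%, and the well-watered plants (plants 14, 15 and 16) had been watered as usual, with 1 array per plant. The labels give the age at V6 as 28 days after sowing in the treatment protocol and as 35 days in the growth protocol. The labels mention 4 plants per treatment, of which 3 were taken for arrays, and do not say how these were picked. Pots held 3 plants each, and which plants shared a pot is not given in the sources used here, so the SDs below describe the spread between these plants.

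Values are log2 signals that were scaled to the upper quartile of each array and centred on the median of each probe over the 6 arrays, so they show differences between plants and hold no absolute level. A leaf-specific gene could not be checked for its presence in such values. The median of an array was between -0.029 and -0.0042 in drought-stressed plants and between -0.097 and 0.13 in well-watered plants. Because each probe is centred on its median, the highest drought value and the lowest well-watered value of every member are the same size with opposite signs. In whole leaves, fewer cells of a type and less RNA per cell cannot be told apart.

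Genes that stand next to each other in a plant genome are often tandem duplicates, that is, copies that arose side by side and still share much of their sequence. Other neighbours are unrelated in sequence but are read from a shared stretch of promoter or lie in the same stretch of chromatin. Soybean also carries large duplicated blocks of chromosome from ancient whole-genome duplications, in which such arrays of genes are repeated. Gene IDs of the Glyma1 annotation are numbered along the chromosome in steps of 10, so a difference of 10 between IDs means that no other ID lies between them unless one was added.

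The falls of the 99 members ran from -3.99 to -2.004 log2 units, with a median of -2.72. The 754 falling probes of the same band that had no falling neighbour had a median of -2.54. Of the members, 34 had a difference of -3 or lower and 65 one above -3. The gap between the highest drought plant and the lowest well-watered plant was 2.06 log2 units at the median and was over 1 unit for 96 members. For the falling probes without a falling neighbour the median gap was 1.91, and the rule asks for no overlap in both sets. Among the members the gap was smallest for Glyma18g48970, at 0.41, and largest for Glyma09g06040, at 3.62. The standard errors of the differences, from limma, were between 0.16 and 0.55.

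**Figure D1:**
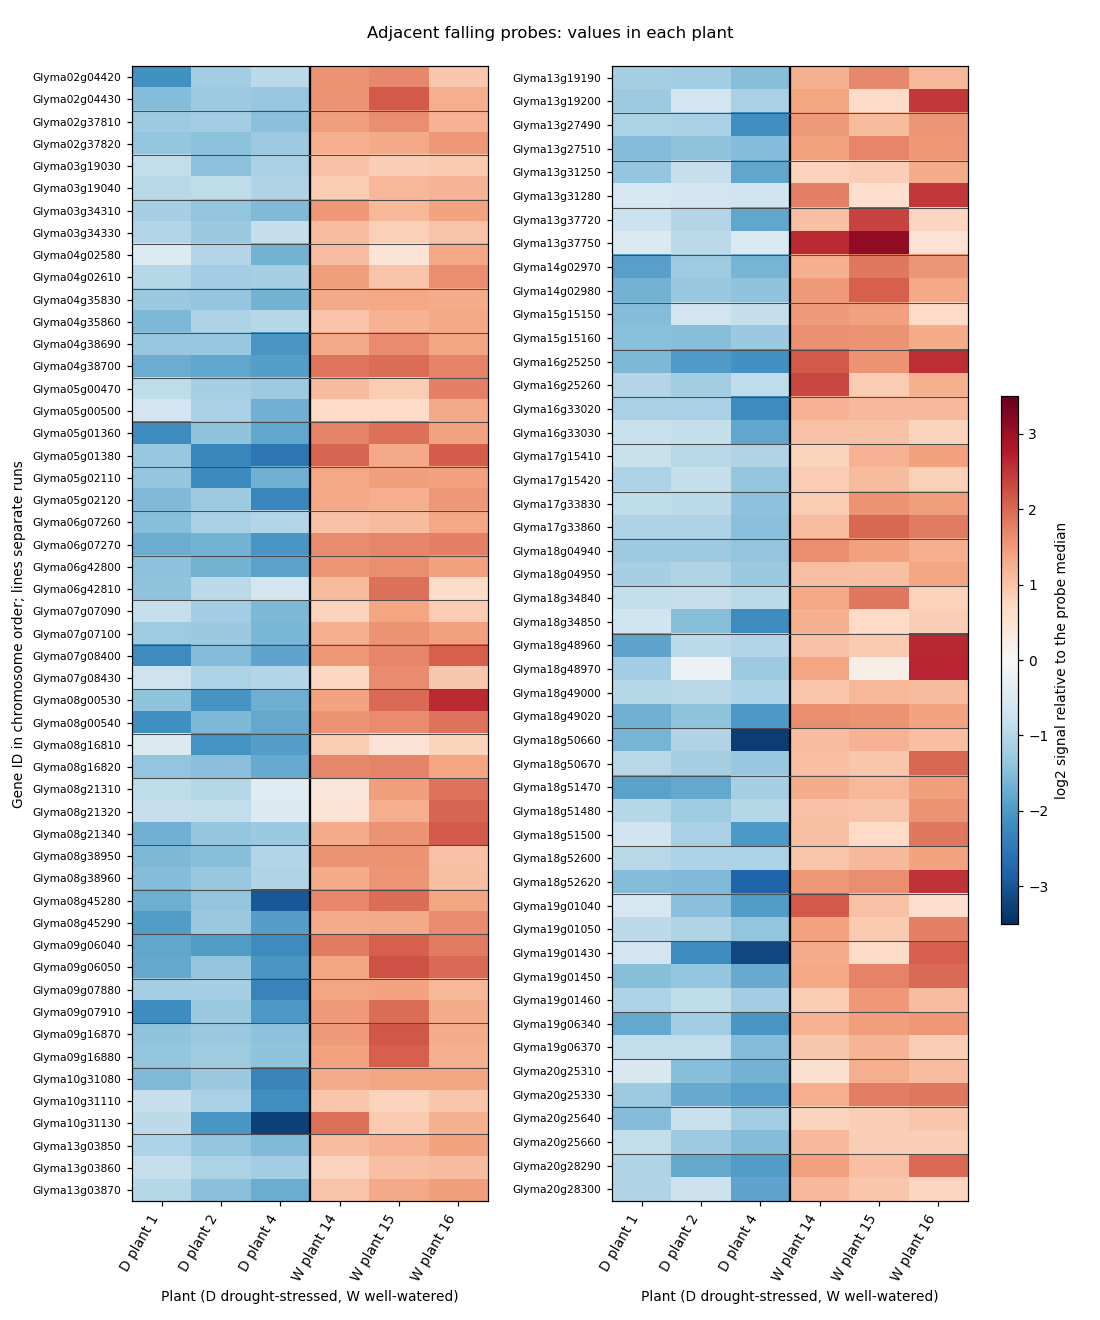
Log2 signal relative to the probe median (colour) of the 99 members (rows, in chromosome order, with lines between runs) in the drought-stressed plants 1, 2 and 4 (D, left of the black line) and the well-watered plants 14, 15 and 16 (W, right of it). All drought values are below 0 and all well-watered values above it, as the rule requires, and drought-stressed plant 4 holds the lowest value of 64 members.

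Among the drought-stressed plants, plant 4 was the lowest for 64 of the 99 members, plant 1 for 21 and plant 2 for 14. Plant 4 was also the lowest for 59.8% of the falling probes without a falling neighbour. Among the well-watered plants, plant 16 was the highest for 45 members, plant 15 for 38 and plant 14 for 16. For the falling probes without a falling neighbour the shares were 50.1%, 30.9% and 19.0% in the same order. The median member had a value of -1.53 in drought-stressed plant 4, against -1.25 in both other drought-stressed plants, and well-watered medians lay between 1.30 and 1.38. The SD within a group was 0.30 in drought-stressed and 0.28 in well-watered plants for the median member. For the falling probes without a falling neighbour the medians were 0.30 and 0.31, and for all probes 0.18 and 0.24.

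How often falling probes stood close together was read from the number of pairs at each ID distance. Falling probes of the band formed 31 pairs at a distance of 10, 12 pairs at 20 and 14 pairs at 30. At the 50 distances from 510 to 1000 on the same chromosomes, the count was 11.4 ± 3.72 pairs (SD over distances), and it ranged from 4 to 19. The count at 10 was above that at each of these far distances, while the counts at 20 and 30 lay within their range. Distances of 70, 90 and 480, which the rule does not use, also lay above that range, with 22, 21 and 20 pairs. A falling neighbour at a distance of exactly 10 was found for 61 of the 99 members. Distances of 10 to 30 are steps along the gene list and not base pairs.

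**Figure D2:**
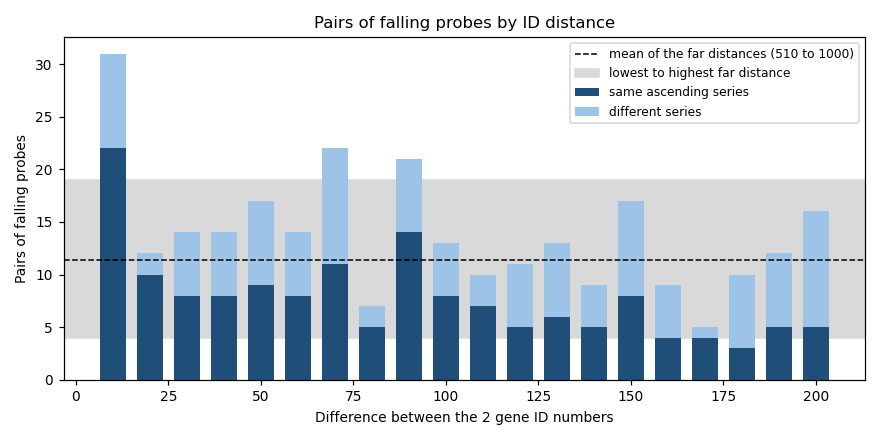
Number of pairs of falling probes (vertical axis) by the difference between their gene ID numbers (horizontal axis, 10 to 200), split by whether both probe set numbers belong to the same ascending series (dark) or to different ones (light). The bar at 10 reaches 31 pairs, above the grey band of the far distances (4 to 19 pairs, dashed mean 11.4), the bars at 20 and 30 lie inside it, and those at 70 (22 pairs) and 90 (21 pairs) lie above it.

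Of the 853 falling probes on a chromosome, 99 (11.6%) had a falling neighbour at 10 to 30, against 7.08% of all 65767 probes on a chromosome. This share is fixed by the same values that chose the members, and no shuffling of positions was done. For probes that rose by 2 to under 4 log2 units with no overlap between groups, 126 of 754 had such a rising neighbour (16.7%, against 6.17% of all probes on a chromosome). They formed 40 pairs at a distance of 10, 19 at 20 and 14 at 30. A rising probe had a falling probe of the band beside it in 35 of the 754 cases (4.64%). The differences between these shares were not tested.

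The members were spread unevenly over the chromosomes. Chromosome 18 held 15 members among 69 falling probes, and chromosomes 8 and 13 held 11 each, among 49 and 60 falling probes. Chromosome 18 also had the largest share of falling probes, at 1.80%, against 1.29% of all probes. No member was found on chromosomes 1, 11 and 12, which held 30, 43 and 40 falling probes. Since members come in runs, these counts rest on few independent places, and they were not tested.

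The probe set numbers of the array offer a feature that the rule did not use. On 19 of 20 chromosomes they run along the gene IDs in 2 ascending series, so that each chromosome is passed through from start to end and then once more, and chromosome 15 has 3 such series. What the series stand for is not given in the sources used here. The 99 members gave 53 steps from a member to the next one of its run. Both genes belonged to the same series in 37 of the 53 steps (69.8%), against 51.7% of the 64769 steps between neighbouring probes over all chromosomes. For steps of 10 the shares were 71.0% of 31 steps between members and 51.6% over all chromosomes. At a distance of 10 there were 22 falling pairs of the same series, against 2 to 12 at the far distances, and 9 of different series, against 1 to 12. Pairs of the same series at a distance of 90 also lay above the far range, at 14.

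The rule did not compare the plants of a group between neighbouring genes, although its demand for no overlap limits how far the extreme plant of each group can lie from the others. For each step, the 6 deviations from the group means were correlated between the neighbouring genes, as a description only, since 6 deviations give an imprecise r. The median r was 0.43 over the 53 steps, against 0.19 over the 4790 pairs of members of different runs and 0.16 over all neighbouring probes. All these pairs share the same 6 arrays, so an array that is off in scale moves every pair. In the same series the median r was 0.62 (37 steps, 32 of them above 0), and between different series it was -0.12 (16 steps, 7 above 0). Over all neighbouring probes the corresponding medians were 0.17 and 0.15. An r above 0.9 was found for 10 of the 53 steps (18.9%), against 3.34% of the pairs of members of different runs and 3.70% of all neighbouring probes.

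**Figure D3:**
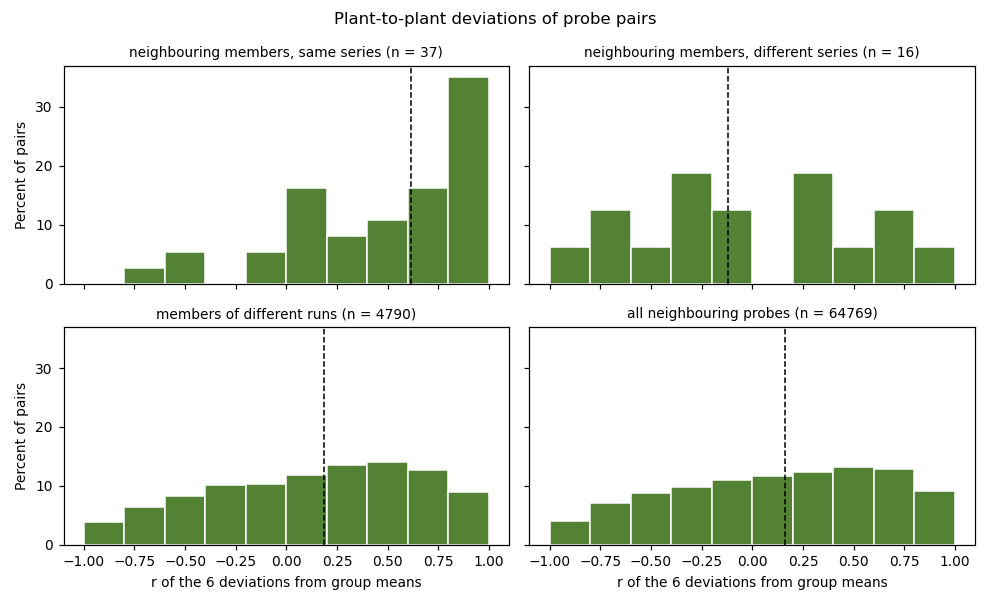
Percent of pairs (vertical axis) by the correlation r of the 6 plants' deviations from their group means (horizontal axis), for neighbouring members of the same series (37 steps) and of different series (16 steps), members of different runs (4790 pairs) and all neighbouring probes (64769 pairs), with dashed medians. Neighbouring members of the same series lie to the right, with a median of 0.62, and those of different series have a median of -0.12.

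The 10 steps with an r above 0.9 are named here after their values were seen. Glyma09g16870 and Glyma09g16880 were the most alike, at an r of 0.997. Glyma09g16870 had values of -1.41, -1.31 and -1.43 in drought-stressed plants 1, 2 and 4, against 1.497, 2.16 and 1.31 in well-watered plants 14, 15 and 16. Glyma09g16880 had -1.34, -1.24 and -1.41 in drought-stressed plants, against 1.40, 2.09 and 1.24 in well-watered plants. In both genes well-watered plant 15 stood above the other well-watered plants, and the genes differed by at most 0.10 in any plant. Glyma13g03860 was close to both Glyma13g03870 (r of 0.99) and Glyma13g03850 (r of 0.97), and Glyma08g21320 to both Glyma08g21310 (r of 0.97) and Glyma08g21340 (r of 0.91). The others were the steps within Glyma17g33830 and Glyma17g33860 (0.96), Glyma20g25310 and Glyma20g25330 (0.95), Glyma10g31110 and Glyma10g31130 (0.92) and Glyma08g38950 and Glyma08g38960 (0.91), all of the same series, and Glyma16g33020 and Glyma16g33030 (0.97), of different series. Whether probes of such neighbours bind each other's transcripts was not tested.

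A single member shared its value on every array with a gene elsewhere, so that Glyma08g38960 on chromosome 8 and Glyma13g41810 on chromosome 13 cannot be told apart in these data. Its neighbour Glyma08g38950 had values of its own, with a difference of -2.76 against -2.59 for Glyma08g38960.

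At the other end were 14 steps with an r below 0. Glyma02g37810 and Glyma02g37820, of different series, had the lowest, at -0.87. Their falls were nearly equal, at -2.75 and -2.73. Glyma02g37810 had -1.26, -1.22 and -1.47 in drought-stressed plants, against 1.46, 1.62 and 1.22 in well-watered plants. Glyma02g37820 had -1.35, -1.43 and -1.28 in drought-stressed plants, against 1.28, 1.31 and 1.53 in well-watered plants. The spread within each group was small in both genes, at 0.20 or less (SD, n = 3), so that this r rests on small deviations.

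Neighbours fell by similar amounts only to a limited degree. The sizes of the falls differed by 0.45 log2 units at the median step, against 0.53 between members of different runs, and both figures are bounded by the width of the band. They differed by less than 0.2 in 16 of the 53 steps and by more than 1 in 9.

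The run of 4 lay on chromosome 18 and was formed by Glyma18g48960, Glyma18g48970, Glyma18g49000 and Glyma18g49020. Glyma18g48960 had -1.85, -0.92 and -1.02 in drought-stressed plants 1, 2 and 4, against 1.02, 0.92 and 2.64 in well-watered plants 14, 15 and 16. Glyma18g48970 had -1.22, -0.21 and -1.26 in drought-stressed plants, against 1.38, 0.21 and 2.67 in well-watered plants. Both genes were highest in well-watered plant 16, and in Glyma18g48970 the groups were nearest to overlap of all members. Without well-watered plant 16, the differences were -2.23 for Glyma18g48960 and -1.69 for Glyma18g48970, so the second would leave the band. Of the 33 members named by rule or in runs of 3, 12 would leave the band on leaving out some plant. Glyma18g49000 had -0.99, -0.98 and -1.09 in drought-stressed plants, against 0.98, 1.16 and 1.10 in well-watered plants. Glyma18g49020 had -1.69, -1.40 and -2.004 in drought-stressed plants, against 1.63, 1.58 and 1.40 in well-watered plants. Glyma18g49000 varied little within either group (SD of 0.058 in drought-stressed and 0.091 in well-watered plants, n = 3 each), with a fall of -2.10 (standard error 0.16). Glyma18g49020 fell by more, at -3.23 (standard error 0.19), and its SD of 0.30 in drought-stressed plants was that of the median member.

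The run was not continuous. Of the IDs between its members, Glyma18g48980 and Glyma18g49010 had differences of -0.11 and -0.02, and Glyma18g48990 had one of -1.09 and was called lower. Calls were made with limma, where a change of 2-fold or more with an adjusted p below 0.05 counted, which took 5.14% of all probes as lower and 4.33% as higher. Just past the run, Glyma18g49030 fell beyond the band, with -5.35 (standard error 0.19), from -2.83, -2.45 and -3.06 in drought-stressed plants, against 2.69, 2.45 and 2.57 in well-watered plants. On the other side, Glyma18g48950 had -1.01 (standard error 0.29) and was called lower, and Glyma18g48940 had -0.05.

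The 5 runs of 3 are named here after their values were seen. On chromosome 19, Glyma19g01430, Glyma19g01450 and Glyma19g01460 had falls of -3.35, -3.22 and -2.23, all of the same series. Glyma19g01430 varied most among the drought-stressed plants of all members, with -0.66, -2.19 and -3.17, against 1.30, 0.66 and 2.08 in well-watered plants. The gene between the first and the second of them, Glyma19g01440, moved the other way. It had 2.41, 1.501 and 1.43 in drought-stressed plants, against -1.43, -1.59 and -2.05 in well-watered plants, a difference of 3.47 (standard error 0.28). Without drought-stressed plant 1, Glyma19g01430 would lie at -4.03, past the band. The groups did not overlap in Glyma19g01440, while for the members of this run the rule required it.

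On chromosome 13, Glyma13g03850, Glyma13g03860 and Glyma13g03870 were the only run of 3 with no ID between its members. Their falls were -2.55, -2.02 and -2.68. Glyma13g03860 had -0.80, -1.09 and -1.22 in drought-stressed plants, against 0.80, 1.05 and 1.10 in well-watered plants. It would lie above the band without drought-stressed plant 2 (-1.994) or 4 (-1.93), or without well-watered plant 15 (-1.99) or 16 (-1.96). With arrays centred on their medians it would lie at -1.99, and with quantile normalization at -1.97, also above the band. The order of the plants was the same in all 3 genes, with plant 4 the lowest under drought and plant 16 the highest with water. The next ID, Glyma13g03880, was called higher, at 1.06.

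On chromosome 10, Glyma10g31080, Glyma10g31110 and Glyma10g31130 fell by different amounts, at -3.07, -2.27 and -3.44. Glyma10g31130 had -0.93, -2.02 and -3.28 in drought-stressed plants, against 1.92, 0.93 and 1.24 in well-watered plants. Drought-stressed plant 4 was the lowest in all 3 genes. Without it Glyma10g31110 would lie at -1.87, and without drought-stressed plant 1 Glyma10g31130 would lie at -4.01, both outside the band. On chromosome 8, Glyma08g21310, Glyma08g21320 and Glyma08g21340 fell by -2.04, -2.004 and -3.12, and well-watered plant 16 was the highest in each. Without that plant, Glyma08g21310 would lie at -1.72 and Glyma08g21320 at -1.62, above the band. Glyma08g21310 had -0.90, -1.01 and -0.43 in drought-stressed plants, against 0.43, 1.46 and 1.91 in well-watered plants. The ID before them, Glyma08g21300, was called higher, at 1.496. On chromosome 18, Glyma18g51470, Glyma18g51480 and Glyma18g51500 had -2.92, -2.28 and -2.48, with the first in a different series from the other members.

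**Figure D4:**
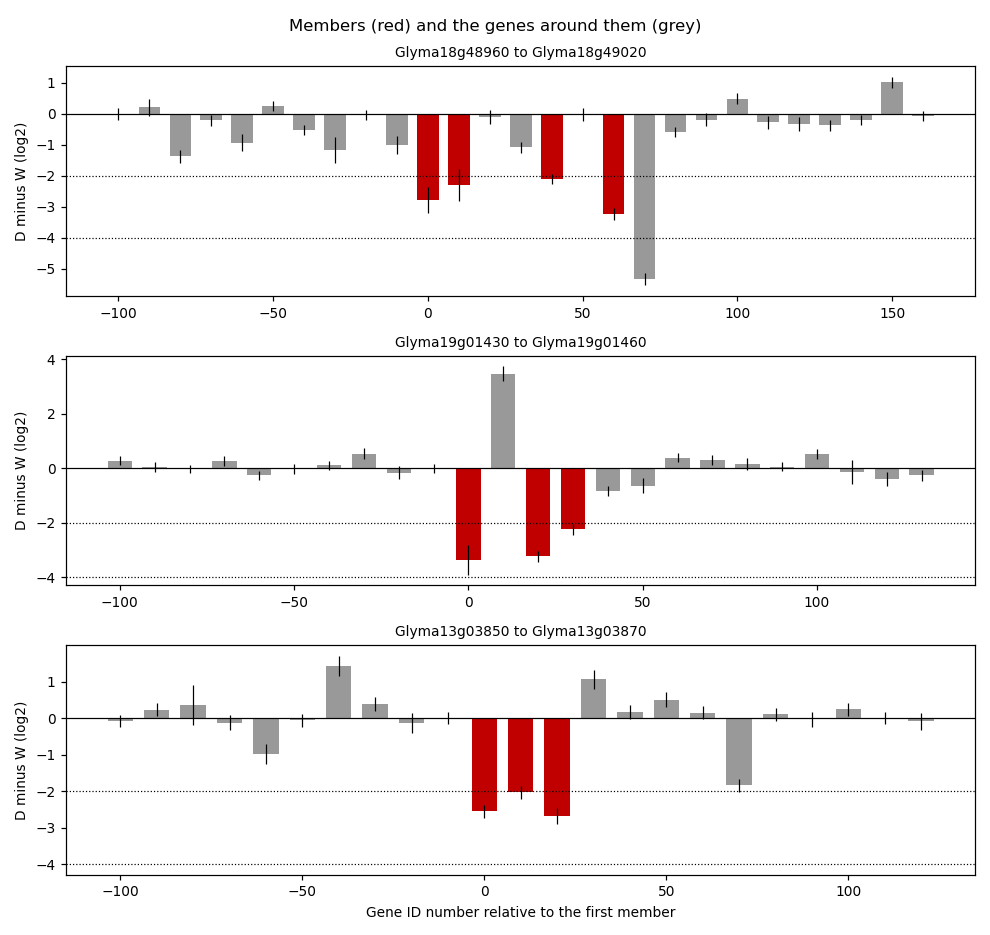
Mean of drought-stressed (D) minus mean of well-watered (W) plants in log2 units (vertical axis, bars with the standard error from limma) by gene ID number relative to the first member (horizontal axis) for 3 runs, with members in red, other genes in grey and dotted lines at the ends of the band. Glyma18g49030 at -5.35 stands at the end of the run of 4, and Glyma19g01440 at 3.47 stands between falling members.

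The runs of 2 with the most negative means held 12 members. Glyma09g06040 and Glyma09g06050 led, at -3.90 and -3.60. Glyma09g06040 had -1.81, -1.97 and -2.19 in drought-stressed plants, against 1.81, 2.10 and 1.81 in well-watered plants, the widest gap of all members. Glyma09g06050 had -1.79, -1.38 and -2.05 in drought-stressed plants, against 1.38, 2.22 and 1.98 in well-watered plants. Glyma05g01360 and Glyma05g01380 had -3.49 and -3.87, and drought-stressed plant 1 changed ends between them. In Glyma05g01360 plant 1 was the lowest, at -2.17, and in Glyma05g01380 it was the highest, at -1.33. Glyma08g00530 and Glyma08g00540 had -3.73 and -3.54.

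Glyma08g45280 and Glyma08g45290 had -3.70 and -3.16, and the next ID but one, Glyma08g45310, fell beyond the band, at -4.87. It had -2.16, -2.21 and -2.97 in drought-stressed plants, against 2.58, 2.16 and 2.52 in well-watered plants. Glyma04g38690 and Glyma04g38700 had -3.01 and -3.68, and Glyma04g38700 had the second widest gap, with -1.73, -1.82 and -1.94 in drought-stressed plants, against 1.88, 1.95 and 1.73 in well-watered plants. Glyma16g25250 and Glyma16g25260 differed most of these runs, at -3.99 and -2.54. Glyma16g25250, the member nearest to the lower end of the band, had -1.56, -1.99 and -2.12 in drought-stressed plants, against 2.15, 1.56 and 2.58 in well-watered plants. Each of these 6 runs lay within a single series.

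The tables of the study were used here in shortened copies, with 1968 gene IDs, of which 1850 are on chromosome 1, where no member lies. That 1 of the 99 members is described in them thus says nothing of how many the study describes. This member, Glyma20g28290, is listed there under jasmonate with Arabidopsis LOX5 as its best match. Lipoxygenases add oxygen to polyunsaturated fatty acids, an early reaction in the synthesis of oxylipins, of which jasmonate is 1. Whether this gene takes part in jasmonate synthesis was not tested. Glyma20g28290 had -1.04, -1.80 and -1.96 in drought-stressed plants, against 1.42, 1.04 and 1.99 in well-watered plants, a difference of -3.09 (standard error 0.29). That table was chosen by the study on these samples, so the listing is no independent support for the fall. The next ID, Glyma20g28300, had -1.06, -0.76 and -1.86 in drought-stressed plants, against 1.12, 0.97 and 0.76 in well-watered plants, a difference of -2.18 (standard error 0.26). Glyma20g28310, which follows, was called lower at -1.17 (standard error 0.21), with -0.89, -0.33 and -1.14 in drought-stressed plants, against 0.41, 0.43 and 0.33 in well-watered plants. The fall became smaller along these 3 IDs, all of the same series. Descriptions of Glyma20g28300 and Glyma20g28310 are not in the shortened copies.

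Between the first and last members of their runs lay 30 probes that were not members, in 19 of the 46 runs. Of these 26 were not called, 2 were called lower (Glyma13g31260 at -1.80 and Glyma18g48990) and 2 higher (Glyma04g02600 at 1.17 and Glyma19g01440). The share not called was 86.7%, near the 91.7% of all probes on a chromosome and outside the band, and their median difference was 0.012.

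The genes beside the members, within 10 to 30 and outside the band, were 299 probes. Of these 25 (8.36%) were called lower and 13 (4.35%) higher. Over all 64914 probes outside the band the shares were 3.89% and 4.4%, and beside falling probes without a falling neighbour they were 6.30% and 3.63%. A fall of -4 or lower was found for 4 of the 299 (1.34%), for 12 of the 4270 probes beside the other falling probes (0.281%) and for 0.123% of all probes outside the band. The 4 were Glyma18g49030, Glyma08g45310, Glyma13g37760 at -4.54 and Glyma15g15170 at -4.23. All were called lower. These shares come from the same contrast as the rule and were not tested.

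Near the upper end of the band, the last members were Glyma03g34330 and Glyma13g03860, both at -2.02, and Glyma08g21320, at -2.004. Just outside it, with no overlap between groups and a falling neighbour, were Glyma09g35570, Glyma08g21880 and Glyma16g01110, each at -1.99. Glyma09g35570 is listed in the study's hormone table as auxin-responsive. Near the lower end the members were Glyma16g25250 at -3.99, Glyma09g06040 at -3.90 and Glyma05g01380 at -3.87, and just outside were Glyma03g28870 at -4.09, Glyma15g15170 at -4.23 and Glyma19g45100 at -4.38. With limma all 99 members were called lower, against 5.14% of all probes. With the test of the study's methods in place of limma, 78 of the 99 members were called lower. The share of all probes called by that test is not given here, and the 5.14% of limma is not its background. The groups did not overlap with drought lower for 16.9% of all probes. As the rule used this contrast, nothing is read from these counts.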

How the data were processed

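RNA of 6 leaves, 1 per plant, was hybridised to Affymetrix soybean arrays. To obtain log2 values, the authors summarised probes to gene level with RMA (Expression Console, normalization off) and scaled them in GeneSpring to the upper quartile of each array. In the deposited log2 values every probe has a median of 0 over the 6 arrays. The gene ID of each probe was taken from another deposited file, whose fold changes and p-values were not used.

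All 66195 probes were used with no filter. Differences are the drought-stressed minus the well-watered mean. Standard errors and calls are from limma 3.58.1 in R 4.3.3, with Benjamini-Hochberg adjustment over all probes, and the code was tested on simulated data. The number of arrays limits the precision, and with groups of 3 the smallest p of an exact permutation test is 0.1.

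The members and lists were chosen with earlier results of these data known. Genes were named by rule: the runs of 4 or more, the 6 shorter runs with the most negative means, members in the tables of the study and the probes nearest to the ends of the band. Others are named as chosen later. Gene descriptions came from shortened copies of the tables of the study. Sequence similarity between neighbours, promoter motifs and keyword lists were not analysed here.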

Additional observations from a re-analysis of the deposited data

How the results depend on the processing

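The count of members depended most on the edges of the rule. With a band from -1.5 there were 394 members in 178 runs (23.7% of the falling probes, against 13.1% of all probes with such a neighbour), and with one from -2.5 there were 38 in 19 runs (8.19%, against 3.93%). With a distance of 10 only there were 61 members in 30 runs (7.15%, against 2.47%). With the methods' t-test in place of no overlap there were 65 members. With the drought-stressed arrays raised by 0.2 there were 75 members, 73 of them among the 99. Without each plant in turn, there were 91 to 116 members, with 83 to 91 of the 99 kept, in 43 to 55 runs, and the share was 11.6% to 13.6%. Over 297 values for 33 named members under other scalings or without a plant, the difference lay between -4.26 and -1.62. No paired analysis was possible because the plant numbers of the groups differ. With no absolute level in the values, members near background could not be told from bright ones.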
